A study of Mus musculus with 3 samples.

Results

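Lymphocytes leave the blood in a lymph node by binding adhesion molecules on the vessel wall, and 10 of these molecules are described here: Glycam1, Madcam1, Sele, Selp, Icam1, Icam2, Vcam1, Cd34, Podxl and Emcn. They were chosen as a named set of vascular addressins, selectins, immunoglobulin-type adhesion receptors and sialomucins, by the gene name that the array files give, and make up 10 of the 28080 genes on the array. All 15 probes of these genes are reported. The study measured total RNA of stromal cells from the mesenteric lymph node of wild type C57BL/6NCrl mice, the node that drains the gut, on single-colour Agilent arrays. Its 3 groups were fibroblastic reticular cells (FRC, gp38 positive and CD31 negative), lymphatic endothelial cells (LEC, positive for both) and blood endothelial cells (BEC, gp38 negative and CD31 positive), and all groups shared a collagenase digest, depletion of CD45-bearing cells and a gate negative for CD45 and CD24. The mean purity of the sorted subsets was 88% with a stated error of 1.5%, and the number of mice and sorts behind each RNA is not given in the labels. Each population had 1 array, so no value below has a replicate check, no test between populations was possible, and every difference is between these arrays. Ages were not given in the sources used here.

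Entry into the node runs in steps. High endothelial cells place sulphated and fucosylated sugars on mucin-like proteins, which are then called the peripheral node addressin and slow a rolling lymphocyte. E-selectin and P-selectin on the vessel wall bind related sugars on leukocytes, mainly where endothelium has been activated. Integrins then hold the cell to the immunoglobulin-type receptors ICAM-1, ICAM-2, VCAM-1 and MAdCAM-1, the last of which is the addressin of gut-associated vessels.

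Levels are log2 intensities set against that array's own 75th percentile, so 0 means as bright as that percentile and each unit is a doubling. A fold is the ratio of 2 arrays for the same probe, and levels of different probes are not compared, since probes differ in how well they bind. A probe was taken as measured where the scanner software marked most of its spots as well above background. The lowest such level was -4.29 for the FRC array, -4.20 for that of LEC and -4.38 for that of BEC. Where no probe of a gene was marked on the dimmer array, its fold is given as at least the size reached against that lowest level or the probe's own level, whichever was higher. The scanner's own error for the members' measured probes was 10 to 21.0% of the intensity, which leaves out any difference between animals, sorts or rounds of amplification.

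Of the 10 members, 8 had the order BEC above LEC above FRC. The exceptions were Vcam1, which ran the other way, and Cd34, which was high in BEC and FRC and low in LEC. Neighbours in these orders differed by more than 0.39 on the log2 scale, the scanner error of a difference at its largest, except LEC and BEC for Icam1, whose repeated spots still did not overlap. That largest error, 21.0%, belonged to a Vcam1 probe near background in FRC, and the brightest Icam1 probe had an error of 10% on each array. In bulk RNA, fewer cells of a type and less RNA per cell cannot be told apart.

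**Figure D1:**
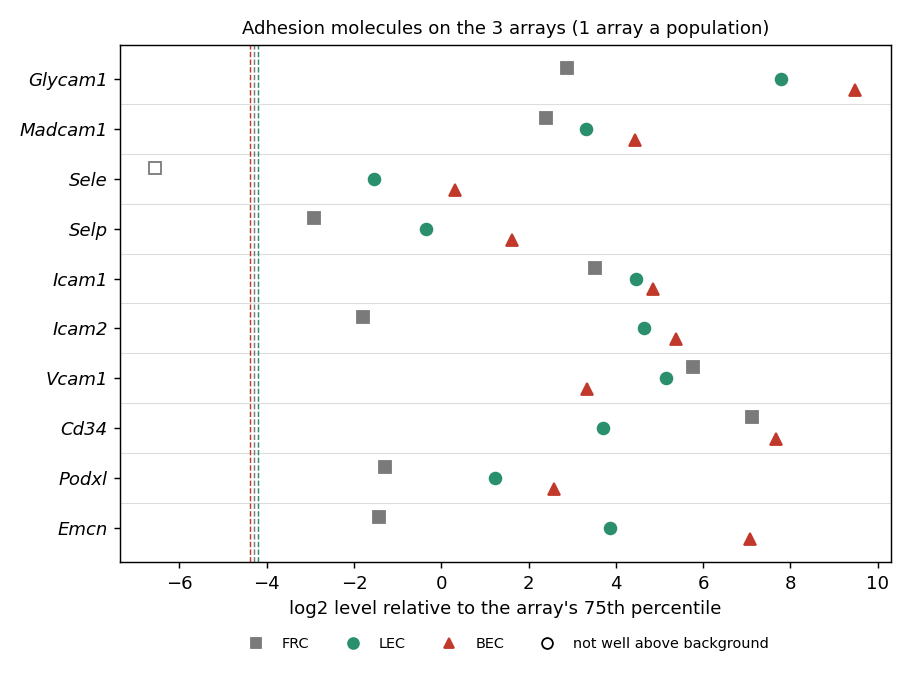
Log2 level relative to the array's 75th percentile for the brightest probe of each member, with 1 point for each of the FRC (square), LEC (circle) and BEC (triangle) arrays; open symbols are not well above background and dashed lines are the lowest level well above background on each array. Emcn spans -1.42 to 7.08, Icam1 spans 3.52 to 4.84, and Sele in FRC is the only open symbol.

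Probes of 4 members are shown so that the measured stretch of the transcript can be seen, for Glycam1 and Madcam1 because each rests on a single probe and for Selp and Vcam1 because several probes are set side by side below, in lower case because no base in them is singled out. Positions are those of the files, whose headers name mouse build mm9. The Glycam1 probe lies at chr15:103393339-103393398 on the minus strand. The Madcam1 probe, of 60 bases, spans 312 bases at chr10:79127883-79128194 on the plus strand, so its genomic match is interrupted by a gap. The Selp probe shown is the dimmer of that gene's pair, at chr1:166071558-166071617 on the plus strand. The Vcam1 probe shown is the one at chr3:115828953-115829012 on the minus strand, away from the brightest Vcam1 probe at chr3:115813216-115813275.
Glycam1 A_52_P602847: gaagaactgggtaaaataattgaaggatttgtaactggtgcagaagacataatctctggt
Madcam1 A_51_P517745: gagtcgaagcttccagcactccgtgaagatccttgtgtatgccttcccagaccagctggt
Selp A_52_P57843: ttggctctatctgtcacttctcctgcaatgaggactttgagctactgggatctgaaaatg
Vcam1 A_52_P520495: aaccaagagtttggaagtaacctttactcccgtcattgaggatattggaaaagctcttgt

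RefSeq promoter sequence (GRCm38.p6) was at hand for 7 members: Glycam1, Madcam1, Sele, Selp, Icam1, Cd34 and Emcn. NF-kB, a transcription factor family downstream of the tumour necrosis factor and lymphotoxin receptors, is textbook background for selectin, VCAM-1 and MAdCAM-1 induction. The 250 bases before each start site were therefore searched on both strands for a loose NF-kB pattern, GGG, any 5 bases, then CC, and for the classical decamer of the immunoglobulin kappa light chain enhancer, which is itself a case of the loose pattern. The loose pattern was present in 5 of the 7 members (Madcam1, Sele, Selp, Icam1 and Cd34) and in 45.8% of all 32851 promoters of the same length. The decamer was present in 46 promoters, or 0.14%, and among the members only in Madcam1. A match is a description of letters and not of a binding site. The upstream runs of 4 members follow, 5′ to 3′ on the strand of the gene, with matched stretches in capitals: Madcam1 at chr10:79664309-79664558, Sele at chr1:164047984-164048233, Selp at chr1:164115014-164115263 (all plus strand) and Glycam1 at chr15:103565082-103565331 (minus strand).
Madcam1: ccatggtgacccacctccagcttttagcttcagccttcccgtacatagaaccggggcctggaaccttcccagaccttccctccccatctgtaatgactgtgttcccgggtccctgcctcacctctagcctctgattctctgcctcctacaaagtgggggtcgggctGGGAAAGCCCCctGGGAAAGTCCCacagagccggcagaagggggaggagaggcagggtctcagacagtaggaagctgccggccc
Sele: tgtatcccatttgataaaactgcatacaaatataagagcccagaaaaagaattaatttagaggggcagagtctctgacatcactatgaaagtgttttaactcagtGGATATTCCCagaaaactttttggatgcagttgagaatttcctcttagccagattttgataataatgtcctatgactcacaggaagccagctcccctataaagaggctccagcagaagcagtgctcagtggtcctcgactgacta
Selp: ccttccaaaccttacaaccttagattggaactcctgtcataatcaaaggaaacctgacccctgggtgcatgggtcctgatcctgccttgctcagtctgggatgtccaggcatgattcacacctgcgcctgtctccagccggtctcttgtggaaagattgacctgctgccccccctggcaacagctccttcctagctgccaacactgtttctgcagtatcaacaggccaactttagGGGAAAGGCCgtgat
Glycam1: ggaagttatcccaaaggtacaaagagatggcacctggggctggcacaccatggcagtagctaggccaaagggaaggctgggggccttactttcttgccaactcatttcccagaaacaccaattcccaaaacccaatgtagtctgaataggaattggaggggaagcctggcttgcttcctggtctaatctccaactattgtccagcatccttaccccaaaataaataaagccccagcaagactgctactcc
In Madcam1 the stretch GGGAAAGCCCC lay 84 to 74 bases before the start and the stretch GGGAAAGTCCC 71 to 61 bases before it, and the decamer is inside the second on the opposite strand. The single Sele match, GGATATTCCC, lay 145 to 136 bases before the start, and the single Selp match, GGGAAAGGCC, 15 to 6 bases before it. The Glycam1 and Emcn runs held neither pattern. The Icam1 match, GGACCACCCC, lay 120 to 111 bases before the start and the Cd34 match, GGGGCTGGCC, 30 to 21 bases before it.

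Counted at 4-fold, 6 of 10 members were higher in LEC than in FRC (Glycam1, Sele, Selp, Icam2, Podxl and Emcn) and 1, Cd34, was higher in FRC. Over all 18443 genes, 4.85% passed 4-fold towards LEC and 5.93% passed it towards FRC. The median difference, LEC minus FRC, was 2.54 over the members and 0.02 over all genes. The Sele and Selp calls were lost under normexp background correction, with differences of 1.46 and 1.68. That setting adds an offset of 50 to each intensity, and the processed FRC intensities were 4.12 for Sele and 51.5 for Selp.

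In BEC against FRC, 7 members were at least 4-fold higher in BEC, those 6 and Madcam1, and 1, Vcam1, was higher in FRC. The background was 6.56% of 18833 genes higher in BEC and 7.57% higher in FRC, and the median difference was 4.20 over the members against 0.09 over all genes. In LEC against BEC no member was at least 4-fold higher in LEC, and 2, Cd34 and Emcn, were at least 4-fold higher in BEC. The background there was 3.39% of 18324 genes higher in LEC and 3.38% higher in BEC, and the median difference, LEC minus BEC, was -1.54 over the members against -0.07 over all genes. Of the members, 9 were on the BEC side of 0 in that comparison and 1, Vcam1, on the LEC side. The LEC array serves in the first and last of these comparisons, the FRC array in the first and second and the BEC array in the second and last, so they are not independent of each other.

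**Figure D2:**
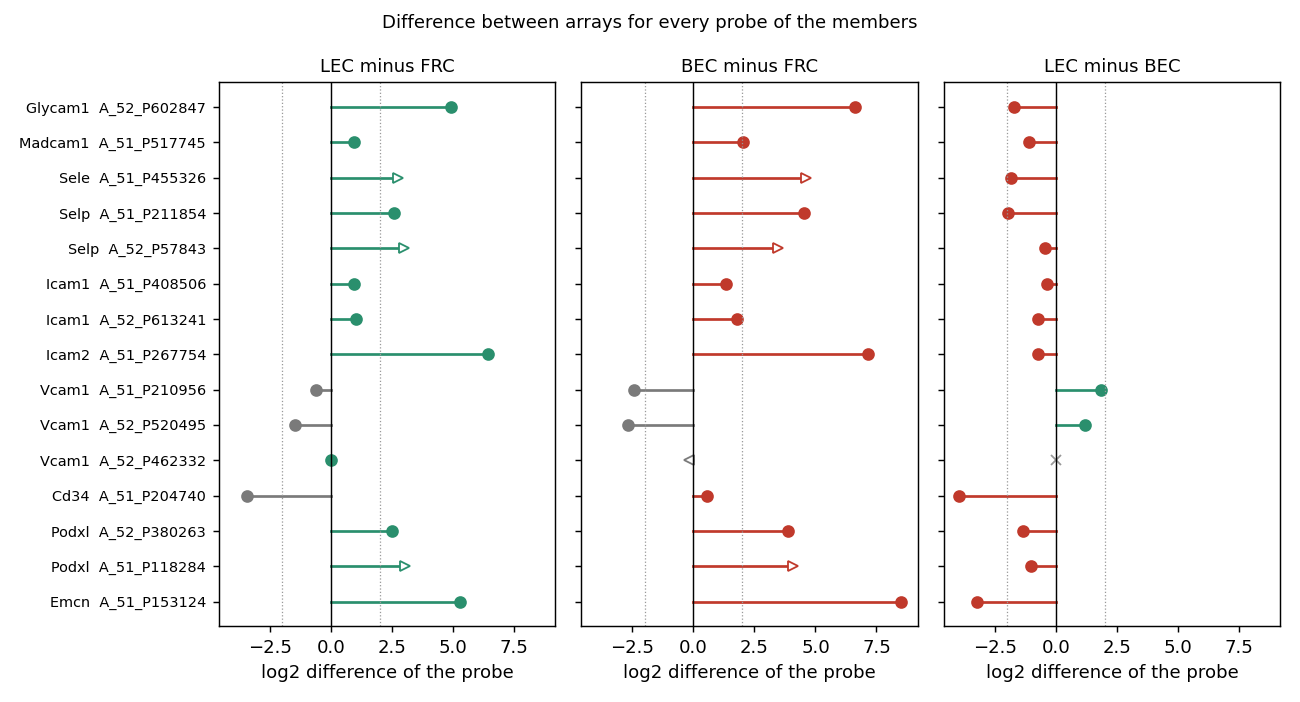
Log2 difference between arrays for each of the 15 probes, in 3 panels (LEC minus FRC, BEC minus FRC, LEC minus BEC), coloured by the population that is higher; open arrowheads are lower bounds, the cross is a probe not well above background on either array and dotted lines mark 4-fold. In the panels against FRC every probe outside Vcam1 and Cd34 points to the right, the Vcam1 probes at -2.43 and -2.68 in BEC minus FRC point left, and Cd34 points left in LEC minus FRC at -3.42.

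Glycam1, a secreted mucin-like protein that carries addressin sugars in high endothelial venules, was at 2.87 in FRC, at 7.78 in LEC and at 9.49 in BEC. Both endothelial arrays were bright and the FRC array was well above background as well. The intensities behind these levels were 2825, 58830 and 259500. Glycam1 was 98.5-fold stronger in BEC than in FRC, 30.1-fold stronger in LEC than in FRC and 3.28-fold stronger in BEC than in LEC. Its only probe was unsaturated on every array.

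Madcam1, the mucosal addressin bound by the integrin of Itga4 and Itgb7 on gut-homing lymphocytes, was at 2.39 in FRC, at 3.32 in LEC and at 4.43 in BEC. The steps were even and small beside those of Glycam1: 1.91-fold from FRC to LEC and 2.16-fold from LEC to BEC. The 4.13-fold difference of BEC over FRC sat at the threshold, and fell below it, at 1.91 on the log2 scale, with quantile normalization. No second probe was available to set beside it.

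Sele encodes E-selectin, which activated endothelium makes for leukocyte rolling. Its probe, at chr1:165987726-165987785 (plus strand), was at -1.54 in LEC and 0.31 in BEC, and was not well above background in FRC, where it read -6.55. The intensities were 92.1 in LEC, 448 in BEC and 4.12 in FRC. Sele was at least 24.3-fold stronger in BEC than in FRC and at least 6.74-fold stronger in LEC than in FRC, and 3.61-fold stronger in BEC than in LEC. With normexp the differences from FRC were smaller, at 2.82 for BEC and 1.46 for LEC on the log2 scale.

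Selp encodes P-selectin, held in endothelial storage granules and in platelets. Its brightest probe, at chr1:166079660-166079719 (plus strand), was spotted 10 times on each array. The mean level was -2.91 in FRC (SD 0.35 between spots), -0.34 in LEC (SD 0.08) and 1.62 in BEC (SD 0.04). The spots ran from -3.48 to -2.62 in FRC, from -0.43 to -0.23 in LEC and from 1.55 to 1.68 in BEC, so no spot of an array overlapped those of another. Spots are repeats of the same RNA and not replicates of the population. Selp was 23.1-fold stronger in BEC than in FRC, 5.95-fold stronger in LEC than in FRC and 3.88-fold stronger in BEC than in LEC, the last just under the threshold. With normexp BEC minus FRC was 3.39 in place of 4.53 on the log2 scale.

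The second Selp probe, whose sequence is given above, was not well above background in FRC and was at -1.29 in LEC and -0.83 in BEC. It had the same order, with at least 11-fold for BEC over FRC and at least 8.00-fold for LEC over FRC. It differed from the first probe in the size of BEC over LEC, at 1.38-fold against 3.88-fold. Platelets also hold P-selectin RNA, and the genes listed as platelet markers stood as follows. Of all probes, 60.5% were marked well above background in FRC, 59.7% in LEC and 60.1% in BEC. Of 9 platelet markers on the array, 6 were so marked in FRC, near that share, and 7 on each endothelial array. Their summed level, as a ratio to the 75th percentile, was 5.85 in FRC, 26.3 in LEC and 12.7 in BEC. Itga2b, an integrin chain on that list, was at -3.57 in FRC, at 3.07 in LEC and at -1.90 in BEC. Gp6, the platelet collagen receptor, was not well above background in LEC or BEC. The listed markers did not move alike between the endothelial arrays. LEC over BEC was 31.4-fold for Itga2b and at least 9.22-fold for Gp1ba, but 1.50-fold for Itgb3, 1.44-fold for Pf4 and 1.31-fold for Gp1bb. Ppbp, a platelet chemokine, was not well above background in FRC, and was at -4.03 in LEC and -1.81 in BEC, 4.64-fold stronger in BEC than in LEC. Any part of platelet RNA in the Selp levels was not tested.

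**Figure D3:**
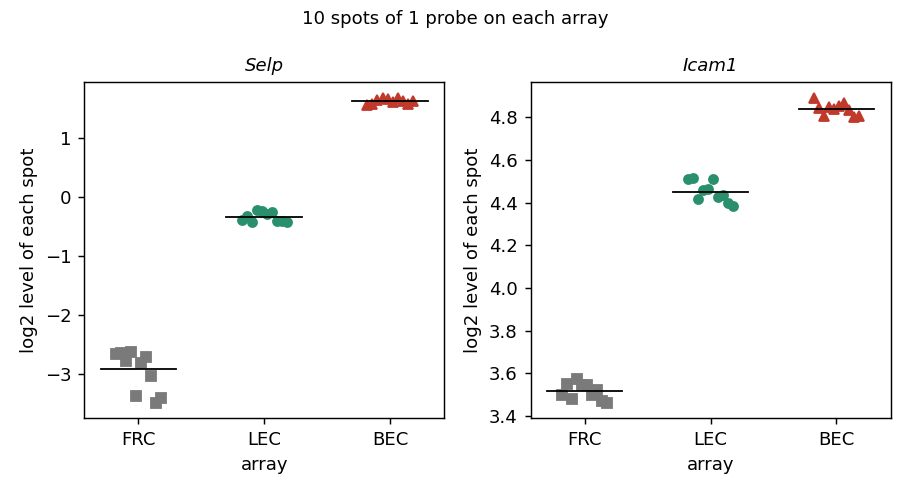
Log2 level of each of 10 spots of the brightest Selp and Icam1 probes on the FRC, LEC and BEC arrays; black lines are the level used for the array, and the axes do not start at 0. For both genes the spots of the 3 arrays do not overlap, and the FRC spots of Selp are the most spread, from -3.48 to -2.62.

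The receptors bound by leukocyte integrins split into 3 patterns. Icam1, a ligand of the integrin LFA-1 that inflammatory signals raise, was well expressed on every array, at 3.52 in FRC (SD 0.04 between 10 spots), 4.45 in LEC (SD 0.05) and 4.84 in BEC (SD 0.03), read by the probe at chr9:20833186-20833245 on the plus strand. Its spots did not overlap between arrays, from 3.46 to 3.57 in FRC, 4.38 to 4.52 in LEC and 4.80 to 4.89 in BEC. The folds stayed below the threshold, at 2.50 for BEC over FRC, 1.91 for LEC over FRC and 1.31 for BEC over LEC. The other Icam1 probe, at chr9:20832290-20832349, gave the same order at -0.77, 0.26 and 1.00, with 3.42-fold for BEC over FRC and 2.05-fold for LEC over FRC.

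Icam2, the LFA-1 ligand that resting endothelium carries, was at -1.80 in FRC, at 4.65 in LEC and at 5.37 in BEC, read at chr11:106239045-106239104 on the minus strand. The endothelial arrays lay close together, 1.65-fold apart, and far above FRC. Icam2 was 144-fold stronger in BEC than in FRC and 87.1-fold stronger in LEC than in FRC, the largest LEC over FRC difference among the members.

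Vcam1, the receptor of the integrin of Itga4 and Itgb1, was highest in FRC: its brightest probe read 5.76 in FRC, 5.16 in LEC and 3.33 in BEC. It was 5.39-fold stronger in FRC than in BEC and 1.52-fold stronger in FRC than in LEC. LEC exceeded BEC 3.55-fold, the only member with that direction, and this passed 4-fold with quantile normalization, at 2.04 on the log2 scale. The second probe, shown above, kept the order at 3.05, 1.57 and 0.37, with 6.40-fold for FRC over BEC and 2.79-fold for FRC over LEC. Another probe, at chr3:115819972-115820031 and annotated to another transcript record of Vcam1, was at the background level, marked well above background in FRC alone at -4.18.

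Cd34, a sialomucin that carries addressin sugars on high endothelial venules and is also made by many fibroblasts, was at 7.12 in FRC, at 3.70 in LEC and at 7.66 in BEC, read at chr1:196787392-196787451 on the plus strand. FRC and BEC were both high and LEC stood apart as the low array. Cd34 was 15.6-fold stronger in BEC than in LEC, 10.7-fold stronger in FRC than in LEC, and 1.46-fold stronger in BEC than in FRC.

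Podxl encodes podocalyxin, a sialomucin related to CD34 and present on vascular endothelium and kidney podocytes. The brightest probe, at chr6:31470405-31470464 on the minus strand, was at -1.28 in FRC, at 1.22 in LEC and at 2.59 in BEC. That made Podxl 14.6-fold stronger in BEC than in FRC, 5.65-fold stronger in LEC than in FRC and 2.58-fold stronger in BEC than in LEC. The dimmer probe, at chr6:31472943-31473002, was not well above background in FRC and gave at least 16.9-fold and at least 8.24-fold for the same FRC comparisons, with 2.05-fold for BEC over LEC.

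Emcn encodes endomucin, a sialomucin of venous and capillary endothelium. It was at -1.42 in FRC, at 3.86 in LEC and at 7.08 in BEC, with intensities of 145, 3898 and 48850, read at chr3:137093811-137093870 on the plus strand. Each array stood well apart from the next. Emcn was 361-fold stronger in BEC than in FRC, the largest difference among the members, 38.8-fold stronger in LEC than in FRC and 9.30-fold stronger in BEC than in LEC.

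The members differed in how much of the BEC level was read on the LEC array. The LEC level was 76.5% of the BEC level for Icam1, 60.5% for Icam2, 46.3% for Madcam1, 38.7% for Podxl, 30.5% for Glycam1, 27.7% for Sele and 25.8% for Selp. It was 10.7% for Emcn and 6.42% for Cd34, while Vcam1 stood at 355%. The 8 genes listed as BEC markers, read the same way, had LEC levels of 3.17 to 35.3% of BEC, with a median of 6.68%. Sox17, a transcription factor of arterial endothelium, was at 3.17%, the angiogenic receptor gene Flt1 at 6.73% and Plvap, which forms the diaphragms of fenestrated vessels, at 35.3%. The marker next below Plvap was Cd93 at 21.3%, so on the brightest probes Selp, Sele and Glycam1 were above every marker except Plvap. That order depends on the probe. BEC over LEC was 1.38-fold on the dimmer Selp probe and 3.89-fold on the dimmer Cd93 probe, beside 3.88-fold on the brightest Selp probe. In the other direction, the lymphatic transcription factor Prox1 was 16.5-fold stronger in LEC than in BEC. Whether BEC in the LEC sort contributed to the LEC levels of the members was not tested.

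**Figure D4:**
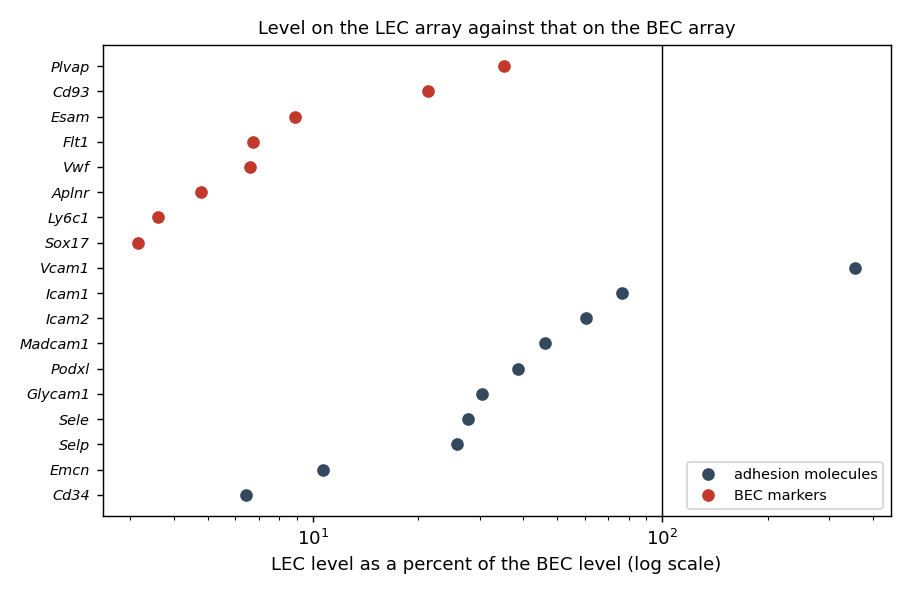
Level on the LEC array as a percent of that on the BEC array, on a log axis, for the 10 members (dark blue) and the 8 genes listed as BEC markers (red), with 1 point for the brightest probe of each gene. The line is 100%. Cd34 (6.42%) and Emcn (10.7%) lie within the range of the BEC markers, 3.17 to 35.3%. Selp (25.8%), Sele (27.7%) and Glycam1 (30.5%) lie above every BEC marker except Plvap (35.3%), and Vcam1 (355%) alone is past the line.

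The sort gates and marker lists bear on the FRC values too. Pecam1, the gene of CD31, was at -4.05 in FRC, at 2.33 in LEC and at 4.02 in BEC, while Pdpn, the gene of gp38, was at -0.83, -1.19 and -3.81. The same 8 BEC markers had FRC levels of 0.295 to 22.0% of BEC, with a median of 0.633%, and the FRC level of Glycam1 was 1.02% of BEC, that of Icam2 0.695% and that of Emcn 0.277%. Madcam1 in FRC was at 24.2% of its BEC level, Icam1 at 40.0% and Cd34 at 68.5%. The labelled populations were read against their marker lists. All 8 FRC markers were at least 4-fold higher in FRC than on either endothelial array. Of all genes, 5.93% were that much higher in FRC than in LEC and 7.57% than in BEC. The summed level of the FRC markers was 2632 in FRC, 160 in LEC and 44.7 in BEC. All 8 BEC markers were at least 4-fold above FRC in BEC and 7 of the 8 above LEC, beside 6.56% and 3.38% of all genes. Of 7 LEC markers, 5 were at least 4-fold above FRC in LEC and 5 above BEC, beside 4.85% and 3.39% of all genes. Ccl21a went the other way in both. The LEC list holds Pdpn, a gene of the sort gates, so its step over BEC is not independent of the sort. The lists were chosen with earlier results of these data known, so these counts describe the arrays and do not test the labels. Pericyte and smooth muscle markers, 10 genes, had summed levels of 128 in FRC, 76.6 in LEC and 144 in BEC. Leukocytes were depleted and gated out, yet all 13 genes listed as leukocyte markers were well above background on all 3 arrays. Of all probes, 60.5% were so marked in FRC, 59.7% in LEC and 60.1% in BEC. The 13 genes had summed levels of 18.3 in FRC, 25.4 in LEC and 37.1 in BEC. Of these, 5 of 13 were at least 4-fold above FRC in BEC, where 6.56% of all genes were, and none at least 4-fold below. The 5 include Cd74 and H2-Aa, of the MHC class II pathway, at 4.97-fold and 4.86-fold. Whether the listed transcripts came from leukocytes was not tested. Ptprc, which encodes CD45, was 6.04-fold stronger in BEC than in FRC, and Cd79b, a B cell receptor chain, 12.2-fold. Other leukocyte genes lay on the FRC side, with BEC minus FRC at -1.58 for Cd14, -0.57 for Cd3e, -0.35 for Lyz2 and -0.05 for Itgax. Cd24a, whose product was gated out, was at 1.61 in FRC, at 3.40 in LEC and at 3.89 in BEC. The part of leukocyte RNA in the members' levels was not tested.

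The mucin-type members serve as addressins only after sugar-modifying enzymes have acted, and 16 genes of that pathway were read. At 4-fold, 5 were higher in BEC than in FRC and 1 higher in FRC, 2 were higher in LEC and 1 in FRC when those were compared, and 1 was higher in LEC than in BEC against 3 higher in BEC. Over all genes the shares were 6.56% and 7.57%, 4.85% and 5.93%, and 3.39% and 3.38%, in the same order, so a count of 1 of 16 is near the background. The list's median difference was 1.01 for BEC minus FRC, 0.69 for LEC minus FRC and -0.31 for LEC minus BEC, beside 0.09, 0.02 and -0.07 over all genes.

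Fut7, the fucosyltransferase that completes the sialyl Lewis X sugar, was at -1.52 in FRC, at 1.38 in LEC and at 5.34 in BEC. It was 116-fold stronger in BEC than in FRC and 15.5-fold stronger in BEC than in LEC, a larger step between the endothelial arrays than Glycam1 showed at 3.28-fold. Chst4, the sulphotransferase restricted largely to high endothelial cells, was at -2.11, -1.61 and 0.65, 6.79-fold stronger in BEC than in FRC and 4.80-fold higher than in LEC. Chst2, a second sulphotransferase of the same sugars, was at -0.67, 1.12 and 2.36, which is 8.20-fold for BEC over FRC, but its dimmer probe read -3.58, -2.97 and -3.18 and did not show a difference of that size.

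St3gal6, a sialyltransferase of selectin ligands, was at 0.07, 3.42 and 4.68, 24.3-fold higher in BEC and 10.2-fold stronger in LEC than in FRC. B3gnt3, which extends core 1 sugars, was not well above background in FRC and was at least 13.3-fold higher in BEC. Other members of the pathway went against this order. Chst10, which makes the HNK-1 sugar epitope, was 5.43-fold stronger in FRC than in LEC and 6.39-fold stronger in FRC than in BEC, and Galnt1, an enzyme that starts O-linked sugars, was 6.91-fold stronger in LEC than in BEC. The core 1 chaperone C1galt1c1 and the fucose transporter Slc35c1 differed by less than 2-fold between any pair of arrays on every measured probe. The core 1 synthase C1galt1 did so on its brightest probe, while its other probe was 2.72-fold stronger in FRC than in LEC and 3.19-fold stronger in FRC than in BEC.

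**Figure D5:**
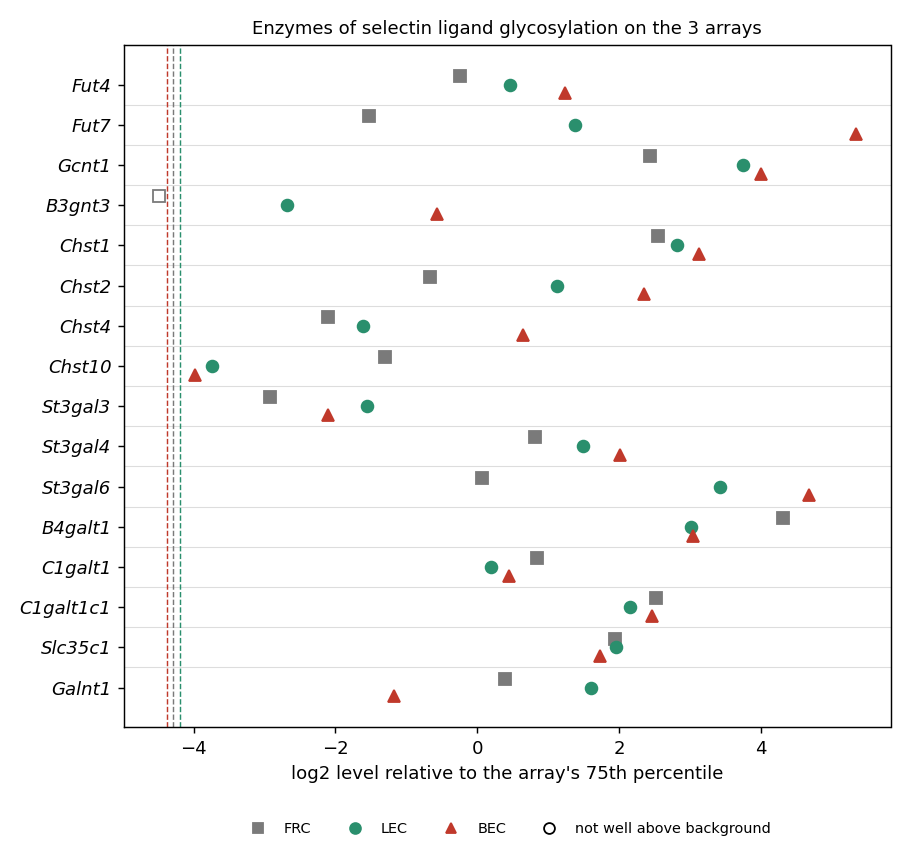
Log2 level relative to the array's 75th percentile for the brightest probe of 16 genes of selectin ligand glycosylation on the FRC (square), LEC (circle) and BEC (triangle) arrays; the open square is not well above background and dashed lines are the lowest level well above background on each array. Fut7 spans -1.52 to 5.34, while Slc35c1 stays between 1.73 and 1.96.

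Among 18 junctional and transmigration molecules, through which the cell crosses the wall after arrest, 11 were at least 4-fold stronger in BEC than in FRC and 10 higher in LEC than in FRC, against 2 and 1 higher in FRC. The shares of all genes were 6.56% towards BEC and 4.85% towards LEC, with 7.57% and 5.93% towards FRC, and the FRC counts are near those shares. Pecam1, counted among these, encodes CD31, on which the cells were sorted, so its difference from FRC is not independent of the sort. It was 269-fold stronger in BEC than in FRC and 83.3-fold stronger in LEC than in FRC. Cdh5, the adherens junction cadherin of endothelium, was 87.7-fold stronger in BEC than in FRC and Esam, an endothelial tight junction molecule, 140-fold. Cldn5, a tight junction claudin, and Stab1, a scavenger and homing receptor, were 118-fold and 208-fold stronger in LEC than in FRC. Between the endothelial arrays, 4 of the 18 passed 4-fold towards BEC and 1 towards LEC, beside 3.38% and 3.39% of all genes. The count towards LEC is near its share. Jam2, a junctional adhesion molecule, was 28.4-fold higher in BEC, and Alcam, an adhesion receptor of activated leukocytes, 21.1-fold higher in LEC.

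Of the genes listed for high endothelial venules, 4 of 10 were at least 4-fold stronger in BEC than in FRC and 6 of 10 higher in BEC than in LEC, with none in the opposite direction in either comparison. Of all genes, 6.56% and 3.38% passed in those directions. Ackr1, the chemokine-binding receptor of venules, was at 1.34 in FRC, at 2.37 in LEC and at 5.30 in BEC, 15.6-fold and 7.65-fold higher in BEC. Ch25h, which makes 25-hydroxycholesterol, was 10.6-fold stronger in BEC than in LEC. In LEC against FRC, Ccl21a, the chemokine that arrests naive lymphocytes, and Enpp2, which makes lysophosphatidic acid, were higher in FRC, 6.25-fold and 4.99-fold, and Fut7 was higher in LEC. Fut7, Chst4 and Gcnt1 stand in both this list and the glycosylation list.

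The further sialomucins included Podxl2, known as endoglycan, which was 5.45-fold stronger in FRC than in LEC, and at least 7.86-fold stronger in FRC than in BEC, unlike its relative Podxl. Parm1 was 5.81-fold stronger in LEC than in BEC and Spn, the leukocyte sialomucin CD43, 4.96-fold stronger in BEC than in LEC. With the 5 members that belong to it, this list of 10 had 4 genes at least 4-fold stronger in BEC than in FRC and 1 higher in FRC. In LEC against FRC the counts were 3 and 2. Of all genes, 6.56% and 7.57% passed in the first comparison and 4.85% and 5.93% in the second. The genes higher in BEC were the members Glycam1, Madcam1, Podxl and Emcn, and those higher in LEC were Glycam1, Podxl and Emcn. Outside the members only Podxl2 passed against FRC, on the FRC side in both comparisons.

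Of the partners on the leukocyte side, the integrin chain Itgb7 was at -2.36 in FRC, at -1.59 in LEC and at 0.05 in BEC, which is 5.32-fold for BEC over FRC. Cd44, a hyaluronan receptor that stromal cells also make, was higher in FRC, 4.55-fold against LEC and 8.59-fold against BEC. Its other measured probe gave 4.68-fold and 3.07-fold, the latter under the threshold.

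A list of 14 receptors and signalling genes was read for the pathways that induce addressins, and it includes inhibitors of NF-kB signalling, Nfkbia and Tnfaip3. Of the 14, 1 passed 4-fold towards LEC and 1 towards FRC when those were compared, beside 4.85% and 5.93% of all genes. In the BEC and FRC comparison 1 passed towards BEC and none towards FRC, beside 6.56% and 7.57%. Il1r1, a receptor of interleukin-1, was 5.35-fold stronger in FRC than in LEC. Tnfrsf11a, which encodes RANK, was not well above background in FRC on its brightest probe, where LEC was at least 117-fold and BEC at least 31.6-fold above it. Its dimmer probe, measured on every array at -3.48 in FRC, at 0.05 in LEC and at -2.18 in BEC, gave 11.5-fold for LEC and 2.47-fold for BEC, the latter under the threshold. On the brightest probes no gene of this list was 4-fold apart between LEC and BEC, where 3.39% and 3.38% of all genes were. A dimmer probe did pass towards LEC for Tnfrsf11a at 4.68-fold, Nr2f2 at 5.85-fold and Nfkb1 at 7.93-fold or more, and none passed towards BEC. The list's median difference on the brightest probes was 0.52 in LEC minus FRC, 0.45 in BEC minus FRC and 0.02 in LEC minus BEC.

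The genes whose pattern over the 3 arrays was nearest to that of a member, by Euclidean distance of log2 levels centred on each gene's mean, were also named. With 3 arrays per gene and 12637 candidate genes (445 for Sele, which shares its background marks with fewer), the distances are a description. Nearest to Glycam1 were Sox7 at 0.22, Rasgrp3 at 0.31 and Sox18 at 0.32, of which Sox7 and Sox18 are endothelial transcription factors. Nearest to Icam2 were Rasip1 at 0.17, Myct1 at 0.24 and Mall at 0.28. For Sele the listed genes were Bcl6b, Dysf and Upp1, but their FRC readings, like that of Sele, were not well above background, so their distances have no order. Selp lay nearest to Abcg1 at 0.01, then Plekhg5 at 0.10 and Dgke at 0.12. Podxl lay nearest to Hba-a2, a haemoglobin chain, and Slc12a7, both at 0.06, then Afdn at 0.10. The red cell transcript Hba-a2 was at 2.69 in FRC, at 5.23 in LEC and at 6.63 in BEC, and any link of red cell RNA to the Podxl levels was not tested. Cd34 lay nearest to Gask1b at 0.17, Cxcl12, a chemokine of stromal cells, at 0.30 and P2ry2 at 0.30. Cxcl12 was at 6.62 in FRC, at 2.78 in LEC and at 6.98 in BEC. Emcn lay further from its nearest genes, Depp1 at 0.38, Clic5 at 0.51 and Tinagl1 at 0.57. Madcam1 lay nearest to Fxr2, Anks1 and Pmf1 at 0.03 to 0.06, and Vcam1 to Derl3, Tbl1x and Krt18 at 0.02 to 0.03.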

How the data were processed

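The 3 populations were hybridised to 1 array each, on 1 slide, with 30 to 50 ng of total RNA amplified in a single round per the labels' protocols. The deposited files are scanner output holding intensity values, for which the submitters' processing notes name Agilent Feature Extraction 10.7.3.1. Each array held 43379 non-control spots. The spike-in slope, per the file headers, was 0.821 (FRC), 1.00 (LEC) and 0.919 (BEC), so log2 differences need not scale alike on every array. No spot was saturated. From the processed intensity, outlier spots were dropped (18 probes left out), replicate spots averaged over 41156 probes and log2 values taken relative to the 75th percentile (386.8, 267.9 and 360.9 for FRC, LEC and BEC). Of the probes, 60.5, 59.7 and 60.1% were well above background. Names were updated through RefSeq accessions, matched for 26690 probes. The brightest probe stood for a gene, and a gene was compared where either array had a probe of it well above background. Genes were called at 4-fold. Genes named from a list were the 3 largest differences per comparison among those 4-fold apart, plus the gate genes, and further ones were chosen after their values were seen. The members and lists were chosen with earlier results of these data known. Alternatives were quantile and median scaling, normexp (limma 3.58.1, R 4.3.3, offset 50), the deposited series matrix, no filter, outlier spots kept, the mean over probes and 2-fold and 8-fold thresholds. Only the comparison step was checked on simulated data. The work used Python 3.11.15, numpy 2.4.6 and pandas 2.3.3. The number of arrays limits the precision, and a comparison of protein sequences that was planned was not made. One leukocyte-side result is not reported here.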

Additional observations from a re-analysis of the deposited data

How the results depend on the processing

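All 30 differences of the members (10 genes in 3 comparisons) kept their direction under the 7 alternatives of scaling, background, source, filter, outlier spots and probe choice. These are not 7 separate checks, since the deposited series matrix gave nearly the same differences as quantile normalization. Keeping outlier spots changed almost nothing, and dropping the filter changed only Sele against FRC. Over these alternatives, 194 values lay within 0.39 on the log2 scale, the scanner error of a difference at its largest and so a wide limit for most probes. By more than that, 16 moved, 11 of them under normexp. Under normexp, Sele in LEC minus FRC was at 1.46 and Selp at 1.68, so 5 members were 4-fold apart there instead of 7. Madcam1 in BEC minus FRC was lost with quantile normalization and in the deposited series matrix, leaving 7 of 8, and Vcam1 in LEC minus BEC was gained, as was Selp with median scaling, giving 3 instead of 2. With a 2-fold threshold 8 members differed in LEC minus BEC, and with an 8-fold threshold 4 did in LEC minus FRC. Over all genes, normexp gave 554 higher in LEC and 639 in FRC, 747 in BEC and 861 in FRC, and 289 in LEC and 325 in BEC, and moved the median LEC minus FRC difference from 0.02 to 0.13. Without a filter, 28080 genes were compared and 1019 were higher in LEC and 875 in BEC, against 622 and 620 with the filter. For Sele in FRC, and for the dimmer Selp and Podxl probes there, the signal was not well above background and gives lower bounds only. No paired analysis was possible because each population has 1 array, and no array could be left out.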
